A study of Mus musculus with 7 samples.

Results

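Lysosomes and autophagy are described here through 40 genes of the lysosome and of autophagy, chosen by name and found by gene symbol in a table of 52224 genes from cultured mouse haematopoietic stem cells. The genes fall into 15 of the lysosomal lumen (hydrolases, their activators and a lipid carrier), 10 of the membrane and proton pump, 2 transcriptional regulators and 13 of autophagy. All 40 reached an FPKM of 1 in 2 or more libraries, the filter used, and were among the 13865 genes tested. FPKM scales sequenced fragments by transcript length and by the fragments of the library, so levels of different genes are compared per length.

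The cells were wild-type haematopoietic stem cells of C57BL/6J mice, sorted from bone marrow as lineage-negative, Sca-1+ and c-Kit+ cells (LSK) that were CD150+ and CD48-, and then cultured for 48 h. They were given gemcitabine at 0.5 µM (Gem, n = 2 libraries), hydroxyurea at 100 µM (HU, n = 2) or the solvent DMSO (n = 3). Gemcitabine is a nucleoside analogue that is incorporated into DNA and blocks its synthesis, and hydroxyurea starves replication of deoxynucleotides by inhibiting ribonucleotide reductase. The title of the series names DEK, replication stress and Fanconi anaemia, and the comparisons made here set each drug against DMSO and the drugs against each other. Whether the libraries of 1 group stem from different animals or cultures is not stated in the labels, and the p-values therefore reflect the variation among libraries, possibly a technical one.

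The lysosome is an acidic compartment in which hydrolases break down proteins, glycans and lipids that arrive by endocytosis or by autophagy. The vacuolar proton pump acidifies it, membrane glycoproteins line it, and in autophagy a double membrane built by the ATG proteins encloses cytoplasm and fuses with it. The transcription factors TFEB and TFE3 bind E-box elements in promoters of many lysosomal genes, and mouse haematopoietic stem cells are known to need autophagy for their maintenance.

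RefSeq promoters (GRCm38.p6, 250 bases before to 50 bases after a gene's start) were matched to 32 of the 40 genes by symbol. They were searched for the E-box CACGTG and for its extension TCACGTGA, the core of the element that TFEB and TFE3 bind. Both motifs read the same on the 2 strands, and the extension contains the E-box. CACGTG was found in 12 of the 32 genes (37.5%), against 8.09% of all 27025 genes with a RefSeq promoter, expressed here or not. TCACGTGA was found in 6 (18.8%), against 1.12%. By class, CACGTG was present for 5 of 13 lumen genes, 4 of 8 membrane and pump genes, 0 of 2 regulators and 3 of 9 autophagy genes. A match is a description of these letters and not evidence of binding. The 30-base windows of the 6 genes with the extension are shown because they span 3 of the classes, with the extension in capitals:
Ctsa, chr2:164833749-164833778, plus strand: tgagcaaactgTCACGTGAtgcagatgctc
Ctsa, chr2:164833766-164833795, plus strand: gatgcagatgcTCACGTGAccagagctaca
Ctsd, chr7:142387908-142387937, minus strand: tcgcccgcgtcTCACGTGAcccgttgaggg
Mcoln1, chr8:3500462-3500491, plus strand: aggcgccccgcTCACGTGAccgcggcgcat
Atp6v0d1, chr8:105566050-105566079, minus strand: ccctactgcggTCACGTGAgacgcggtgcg
Atp6v1a, chr16:44139373-44139402, minus strand: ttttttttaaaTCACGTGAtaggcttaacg
Atg3, chr16:45158746-45158775, plus strand: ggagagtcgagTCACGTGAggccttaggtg

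Lipa, the gene that passed the test as higher in HU, held neither motif in its promoter, which is shown in full for comparison, and Lamp1 held 4 copies of CACGTG (in capitals) within 1 stretch of its promoter:
Lipa, chr19:34527425-34527724, minus strand: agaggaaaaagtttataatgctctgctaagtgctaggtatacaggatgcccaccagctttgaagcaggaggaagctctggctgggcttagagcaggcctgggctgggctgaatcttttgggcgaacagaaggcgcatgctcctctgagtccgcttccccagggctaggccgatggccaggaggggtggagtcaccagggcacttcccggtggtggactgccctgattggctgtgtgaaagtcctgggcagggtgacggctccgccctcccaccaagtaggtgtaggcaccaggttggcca
Lamp1, chr8:13158911-13159210, plus strand: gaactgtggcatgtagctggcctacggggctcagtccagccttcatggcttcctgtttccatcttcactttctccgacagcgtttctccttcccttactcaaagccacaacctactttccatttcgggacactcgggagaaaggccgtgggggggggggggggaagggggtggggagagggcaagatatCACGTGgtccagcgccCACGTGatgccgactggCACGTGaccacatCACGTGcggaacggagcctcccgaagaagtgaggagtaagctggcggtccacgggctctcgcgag

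The libraries differed in ways that bear on every value below. Summed over all genes, FPKM came to 703016 to 729258 in Gem, 647760 to 651315 in HU and 818775 to 832979 in DMSO, and the sequencing depth is unknown. The median log2 fold change of all genes tested was -0.25 in Gem and -0.30 in HU against DMSO as deposited, and 0.011 and 0.020 after trimmed-mean scaling, which multiplied the drug libraries by 1.21 to 1.31 and the DMSO libraries by 0.988 to 1.02. Library pairs of 1 group had Pearson correlations of 0.965 to 0.981 on the log2(FPKM + 1) scale, and pairs of different groups 0.950 to 0.969. The DMSO libraries differed among themselves in the summed FPKM of mast cell and basophil genes, with 635 in DMSO 1, 1387 in DMSO 2 and 296 in DMSO 3. Of stem cell genes, Mecom, Fgd5, Hoxb5 and Slamf1, the gene of CD150, lay at or below 1.71 FPKM in all 7 libraries, so these defining markers of the labelled cell type were at or near 0 after culture. Genes of other blood cells were abundant, such as the neutrophil granule gene Mpo at 3358 ± 486 FPKM in Gem, 3740 ± 342 in HU and 3234 ± 627 in DMSO (SD, n = 2, 2 and 3). In bulk RNA of this kind, fewer cells of a type and less RNA per cell cannot be told apart. Whether the libraries keep strand is not stated, and protein-coding genes on the opposite strand overlap the span of 11 of the 40 genes in GENCODE M21 (Ctsa, Ctsb, Ctsz, Hexa, Grn, Lamp1, Npc1, Atp6v1h, Becn1, Map1lc3b and Sqstm1), so reads of the shared stretches may stem from either gene.

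As deposited, most of the lysosome and autophagy genes had lower FPKM in both drugs than in DMSO, and so did most other genes of their level. In Gem 12 of the 40 fell and 0 rose (limma, Benjamini-Hochberg adjusted p below 0.05), against 23.2% of all genes tested that fell and 1.5% that rose. In HU 26 fell and 1 rose, against 35.5% and 4.46% of all genes. Of the 40 genes, 37 had a mean FPKM of at least 20, and among all 4227 genes of that level 55% fell in Gem and 75.8% fell in HU. Both contrasts share the 3 DMSO libraries. All 4 drug libraries lay below all 3 DMSO libraries for 30 of the 40 genes, against 42.6% of all genes tested and 79% of those with a mean FPKM of at least 20, and above them for 1 (3.76% of all genes). The counts of genes that fell are thus not above the background of their level. At an unadjusted p below 0.05 there were 19 of the 40 in Gem and 29 in HU, either way, against 39.7% of all genes tested in Gem and 49.1% in HU.

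After trimmed-mean scaling the picture was another one, since 0 of the 40 genes fell in either drug. In HU 1 rose, against 10% of all genes called either way, and in Gem 0 were called, against 0.945%. At an unadjusted p below 0.05 there were 11 of the 40 in Gem and 14 in HU, against 16.9% of all genes tested in Gem and 25% in HU. The 4 drug libraries lay above all 3 DMSO libraries for 10 of the 40 genes (10.8% of all genes tested, 7.26% of those with a mean FPKM of at least 20) and below them for 3 (11.1% of all genes). Of those 10, 9 were lumen genes. The median scaled log2 fold change of the 15 lumen genes was 0.17 in Gem and 0.16 in HU. For 34 other lumen genes, from the wider list described below, it was 0.053 and 0.013, against 0.011 and 0.020 for all genes. Membrane and pump genes had medians of 0.05 in Gem and -0.0036 in HU, and autophagy genes 0.03 and -0.05. Since genes of high level fell more than genes of low level, the fold changes were also corrected for transcript length and level: 14 of the 15 lumen genes then lay above the median of all genes in each drug, and Lipa, Grn and Hexa passed as higher in HU, where 1% of all genes with a length did. In Gem 0 of the 40 passed with this correction, while 0.439% of all genes passed either way. At an unadjusted p below 0.05 there were 11 of the 40 in Gem, and the share of all genes at that threshold was not computed for this correction.

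**Figure D1:**
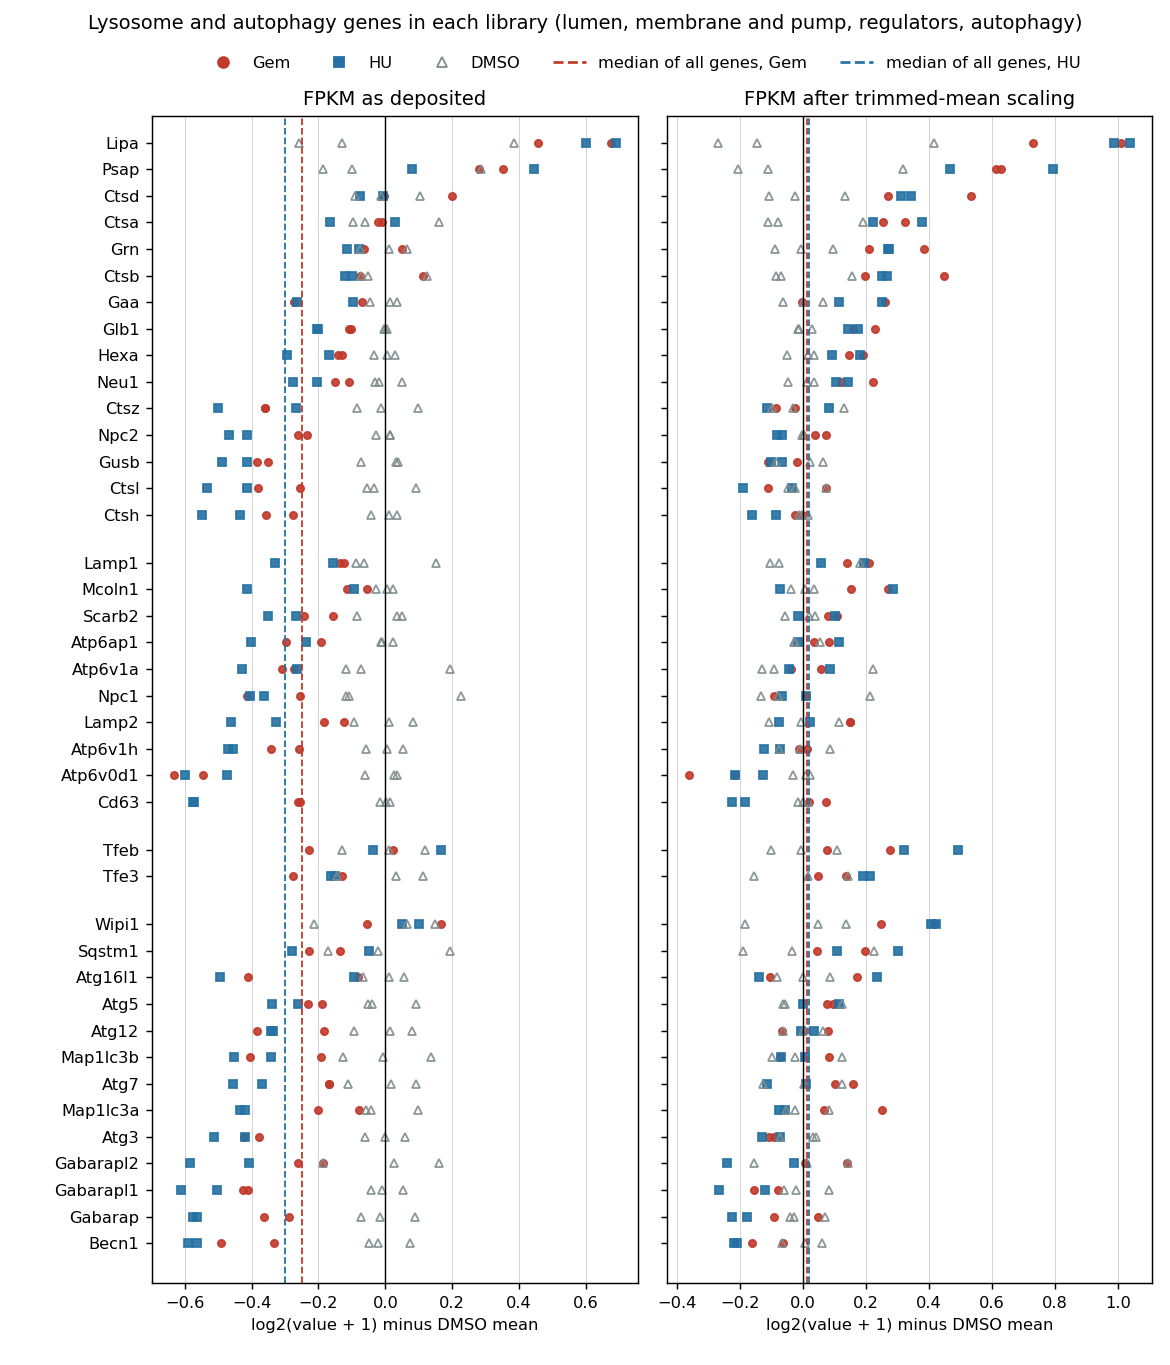
Each row is 1 gene and each point 1 library, placed by its log2(value + 1) minus the mean of the 3 DMSO libraries, with FPKM as deposited on the left and after trimmed-mean scaling on the right; dashed lines mark the median of all genes tested in Gem and HU. On the left most drug points lie below DMSO and Lipa lies above it, and on the right 9 of the 15 lumen genes at the top have all 4 drug points above DMSO, while Atp6v0d1 has them below.

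**Figure D2:**
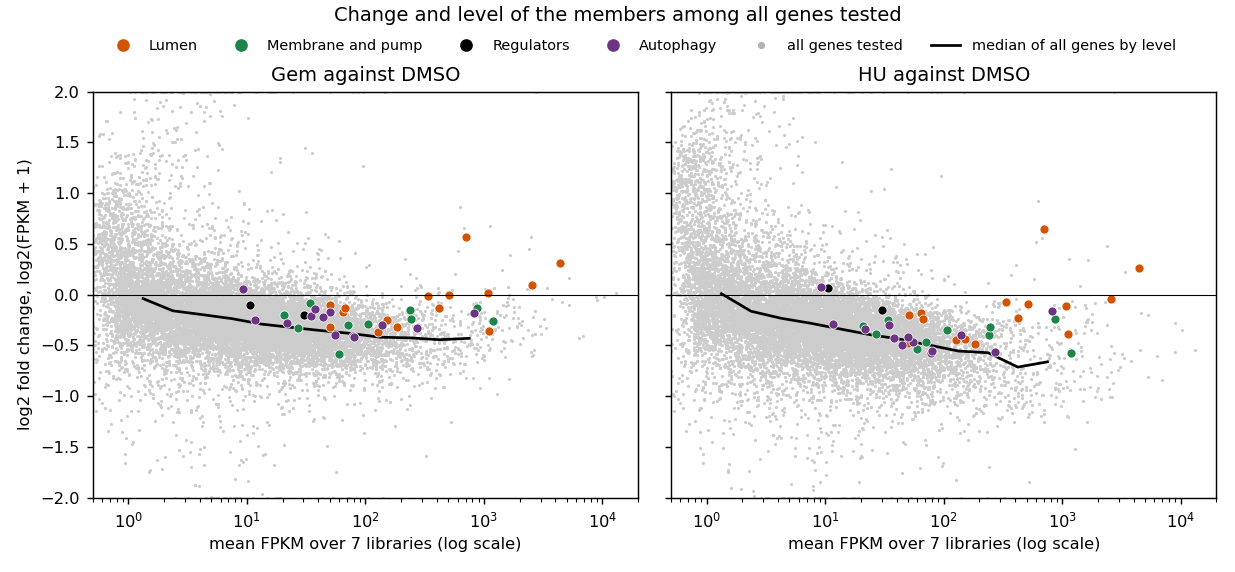
Log2 fold change on the log2(FPKM + 1) scale against mean FPKM over the 7 libraries (log axis), for Gem on the left and HU on the right. All genes tested are grey and the 40 genes are coloured by class, with the black line as the median of all genes by level. Grey points beyond 2 either way are drawn at the edge, at -2 or 2. The line falls with rising level, and Lipa at 0.57 in Gem and 0.64 in HU lies above it. Psap, at 0.32 and 0.26, lies to the right of the end of the line.

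Among lumen genes, Lipa stood out as the only one of the 40 that rose in a drug. It encodes lysosomal acid lipase, which frees cholesterol and fatty acids from lipoprotein lipids. Lipa (chr19:34492318-34527474) measured 737 and 858 FPKM in Gem, 814 and 866 FPKM in HU, and 491, 449 and 702 FPKM in DMSO. Its 4 drug libraries all lay above DMSO 3, the highest of the DMSO libraries. Mean FPKM was 797 ± 85.4 in Gem, 840 ± 36.2 in HU and 547 ± 135 in DMSO (SD), a ratio to DMSO of 1.46 for Gem and 1.54 for HU. On the log2(FPKM + 1) scale the difference from DMSO was 0.64 ± 0.18 (SE, adjusted p = 0.0273) in HU, which passed, and 0.57 ± 0.18 (SE, adjusted p = 0.059) in Gem, which did not. After scaling the log2 fold change was 1.01 ± 0.20 in HU (adjusted p = 0.0224) and 0.87 ± 0.20 in Gem (adjusted p = 0.0909). The call in HU was lost without DMSO 1 (adjusted p = 0.078), DMSO 2 (0.062), HU 1 (0.0898) or HU 2 (0.115), and without DMSO 3 both drugs passed, with log2 fold changes of 0.76 in Gem (adjusted p = 0.006) and 0.84 in HU (adjusted p = 0.0018).

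The other lipid genes of the lumen went different ways. Psap encodes prosaposin, the precursor of the saposins that present sphingolipids to their hydrolases, and it was the most abundant of the 40 genes (chr10:60277627-60302597). Psap measured 4981 FPKM in Gem 1, 4729 in Gem 2, 4123 in HU 1 and 5303 in HU 2, with 3424, 3639 and 4756 in DMSO 1 to 3. All 4 drug libraries exceeded DMSO 1 and DMSO 2, while HU 1 and Gem 2 lay below DMSO 3, so the groups overlapped as deposited. The log2 fold change was 0.32 ± 0.17 (SE, adjusted p = 0.218) in Gem and 0.26 ± 0.17 (SE, adjusted p = 0.266) in HU, and neither passed; without DMSO 3 Psap passed in Gem at 0.46 (adjusted p = 0.0466). After scaling all 4 drug libraries lay above DMSO 3 and the log2 fold change was 0.62 in Gem (adjusted p = 0.144) and 0.63 in HU (adjusted p = 0.0661). Npc2, the soluble carrier that hands cholesterol to the membrane protein NPC1, measured 146 and 144 FPKM in Gem and 124 and 129 in HU, against 174, 174 and 169 in DMSO. It fell in both drugs with no overlap, by 0.25 ± 0.06 in Gem (adjusted p = 0.0274) and 0.44 ± 0.06 in HU (adjusted p = 0.0022), but its scaled log2 fold change was 0.06 in Gem and -0.07 in HU.

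Cathepsins, the proteases of the lysosome, split into those near the DMSO level and those below it. The aspartic protease cathepsin D gene, Ctsd (chr7:142375911-142388038), was the second most abundant of the 40 and measured 2521 and 2905 FPKM in Gem, 2400.1 and 2515 FPKM in HU, and 2374, 2505 and 2717 FPKM in DMSO. The cysteine protease gene Ctsb (chr14:63122462-63145923) measured 1043 FPKM in Gem 1, 1189 in Gem 2, 1011 in HU 1 and 1026 in HU 2, with 1061, 1045 and 1198 in DMSO 1 to 3. Ctsa, whose product is a carboxypeptidase that also protects other lysosomal enzymes, measured 335 and 338 FPKM in Gem and 303 and 347 in HU, against 326, 318 and 379.9 in DMSO. Drug and DMSO libraries overlapped for all 3 of these genes, and their log2 fold changes ran from -0.02 to 0.10 in Gem and from -0.11 to -0.04 in HU, with adjusted p from 0.528 to 0.927 in Gem and 0.398 to 0.782 in HU. After scaling the 4 drug libraries lay above DMSO for all 3, with log2 fold changes of 0.29 to 0.40 in Gem and 0.26 to 0.33 in HU, none of which passed (adjusted p from 0.124 to 0.229). Ctsd shares its position with the predicted gene Gm49369 on the same strand in GENCODE M21, so reads of the pair may have been split between them.

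The remaining cathepsin genes fell in both drugs as deposited. Ctsh, an aminopeptidase, measured 176 and 167 FPKM in Gem, 146 and 158 FPKM in HU, and 219, 215 and 207 FPKM in DMSO. Ctsl, a cysteine endopeptidase, measured 44.6 FPKM in Gem 1, 48.8 in Gem 2, 43.6 in HU 1 and 40.1 in HU 2, with 62.3, 57.02 and 56.2 in DMSO 1 to 3. Ctsz, a carboxypeptidase, measured 991 and 991 FPKM in Gem and 898 and 1055 in HU, against 1259, 1199 and 1362 in DMSO. None of the 3 overlapped between drug and DMSO libraries. Ctsh fell by 0.32 ± 0.07 in Gem (adjusted p = 0.019) and by 0.49 ± 0.07 in HU (adjusted p = 0.0024). Ctsl fell by 0.32 ± 0.08 in Gem and 0.47 ± 0.08 in HU (adjusted p = 0.0333 and 0.0052). The falls of Ctsz were 0.36 ± 0.10 in Gem, and 0.39 ± 0.10 in HU (adjusted p = 0.0366 and 0.019). After scaling all 3 overlapped with DMSO, with log2 fold changes between -0.12 and -0.01 over both drugs.

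Glycosidases made up 5 of the lumen genes, and they remove sugars from glycoproteins, glycolipids and glycogen. Gusb, the β-glucuronidase gene, measured 113 and 116 FPKM in Gem, 105 and 111 FPKM in HU, and 152, 141 and 151 FPKM in DMSO. It fell by 0.37 ± 0.07 in Gem (adjusted p = 0.0123) and 0.45 ± 0.07 in HU (adjusted p = 0.003), and its scaled log2 fold change was -0.06 and -0.08. Hexa, the gene of the hexosaminidase α subunit, measured 411 FPKM in Gem 1, 407 in Gem 2, 367 in HU 1 and 400.3 in HU 2, with 439, 459 and 452 in DMSO 1 to 3. Glb1, the β-galactosidase gene, measured 49.7 and 49.95 FPKM in Gem and 46.4 and 46.6 in HU, against 53.9, 53.6 and 53.5 in DMSO. Neu1, the sialidase gene, measured 64.8 and 66.8 FPKM in Gem, 59.3 and 62.4 FPKM in HU, and 70.5, 74.6 and 71.2 FPKM in DMSO. These 3 genes lay below DMSO in all 4 drug libraries as deposited and above DMSO in all 4 after scaling. As deposited each fell in HU, Hexa by 0.23 (adjusted p = 0.0343), Glb1 by 0.20 (adjusted p = 0.0392) and Neu1 by 0.24 (adjusted p = 0.0273), and none passed in Gem (adjusted p from 0.192 to 0.257) or after scaling (0.178 to 0.311). Gaa, the gene of the acid α-glucosidase that degrades glycogen, measured 56.9 FPKM in Gem 1, 65.6 in Gem 2, 57.2 in HU 1 and 64.5 in HU 2, with 66.8, 69.6 and 70.6 in DMSO 1 to 3. It lay below DMSO in all 4 drug libraries by a small margin, with a log2 fold change of -0.17 in Gem and -0.18 in HU, and passed in neither (adjusted p = 0.199 and 0.151). Glb1 overlaps Tmppe on the same strand in GENCODE M21.

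Grn, which encodes progranulin, a luminal protein that is cut into granulins, measured 499 and 540.1 FPKM in Gem and 482 and 493 in HU, against 525, 495 and 546 in DMSO. Drug and DMSO libraries overlapped, with a log2 fold change of -0.0070 in Gem and -0.10 in HU (adjusted p = 0.957 and 0.345). After scaling all 4 drug libraries lay above DMSO, at 603 to 681 scaled FPKM in Gem and 629 to 630.4 in HU, against 491 to 557 in DMSO, with a log2 fold change of 0.30 in Gem and 0.27 in HU (adjusted p = 0.144 and 0.0903).

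**Figure D3:**
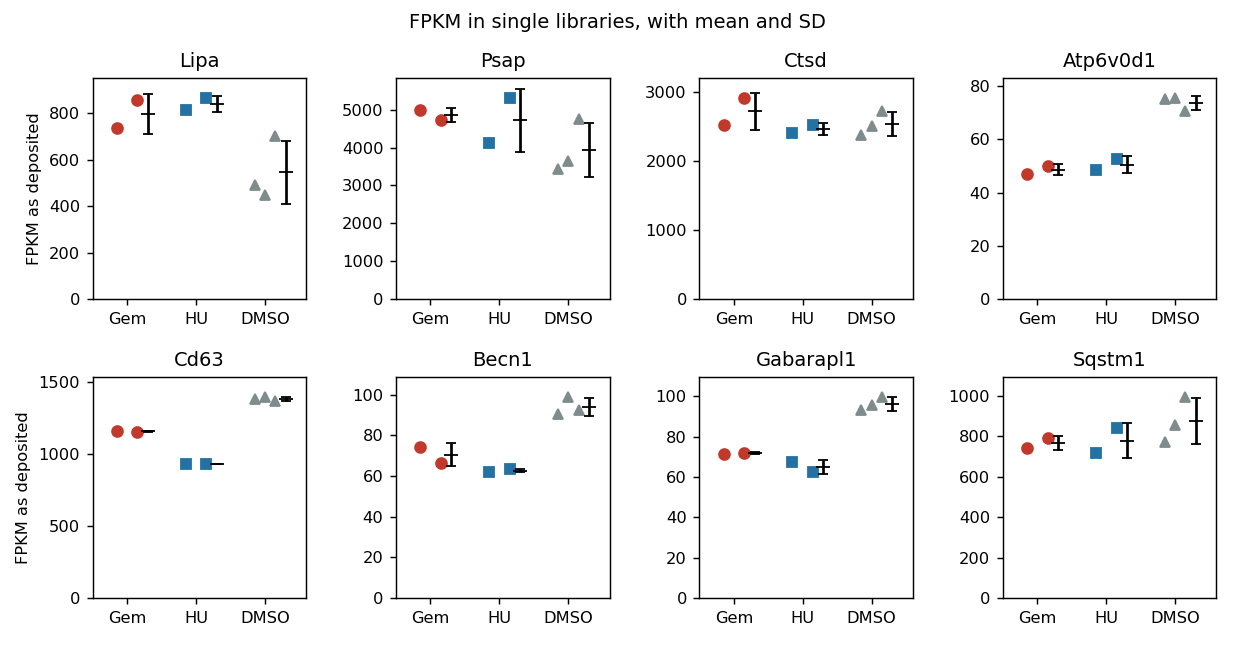
FPKM as deposited on the vertical axis (from 0) for 8 genes, with 1 point per library in Gem (n = 2), HU (n = 2) and DMSO (n = 3) and bars for the mean and SD of each group. Lipa lies above DMSO in all 4 drug libraries, Atp6v0d1, Cd63, Becn1 and Gabarapl1 lie below it, and Psap, Ctsd and Sqstm1 overlap with it.

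All 10 membrane and pump genes had lower FPKM in each of the 4 drug libraries than in any DMSO library as deposited, while after trimmed-mean scaling only Atp6v0d1 did. In Gem 3 of the 10 fell and in HU 8 did, and after scaling 0 of the 10 passed in either drug. After scaling 1 and 2 had an unadjusted p below 0.05, against 16.9% and 25% of all genes. All 10 had a mean FPKM of at least 20. Of all genes of that level 79% lay below DMSO in all 4 drug libraries as deposited, 55% fell in Gem and 75.8% fell in HU. The pump consists of a membrane sector that conducts protons and a cytoplasmic sector that hydrolyses ATP. Atp6v0d1, a subunit of the membrane sector's stalk, changed most of these genes in Gem (chr8:105524465-105566047). Atp6v0d1 measured 47.1 and 50.1 FPKM in Gem, 48.3 and 52.7 FPKM in HU, and 74.97, 75.4 and 70.4 FPKM in DMSO. Its highest drug library, HU 2, lay well below its lowest DMSO library, DMSO 3. It fell by 0.59 ± 0.08 in Gem (adjusted p = 0.0065), and by 0.54 ± 0.08 in HU (adjusted p = 0.0024). After scaling it still lay below DMSO in all 4 drug libraries, at 57.0 and 63.1 scaled FPKM in Gem and 63.1 and 67.2 in HU, against 74.1, 74.7 and 71.9 in DMSO. The scaled log2 fold change was -0.29 ± 0.07 in Gem (adjusted p = 0.117) and -0.17 ± 0.07 in HU (adjusted p = 0.199), and a correction for length and level turned it to 0.04 in HU.

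The other pump genes fell less. Atp6v1h, a regulatory subunit of the cytoplasmic sector, measured 68.5 FPKM in Gem 1, 64.6 in Gem 2, 59.7 in HU 1 and 59.05 in HU 2, with 78.8, 82.4 and 85.3 in DMSO 1 to 3. It fell by 0.30 ± 0.07 in Gem (adjusted p = 0.022) and by 0.46 ± 0.07 in HU (adjusted p = 0.0029). Atp6v1a, the subunit that carries the catalytic site, measured 95.9 and 98.3 FPKM in Gem and 88.1 and 99.04 in HU, against 113, 109.5 and 136 in DMSO. Atp6ap1, an accessory protein of the pump, measured 238 and 221 FPKM in Gem, 206 and 231 FPKM in HU, and 270.1, 269.9 and 276 FPKM in DMSO. Both fell in HU, by 0.35 (adjusted p = 0.0376) and 0.32 (adjusted p = 0.0144), and missed the threshold in Gem at -0.29 (adjusted p = 0.0862) and -0.25 (adjusted p = 0.0526). The scaled log2 fold changes of these 3 genes lay between -0.10 and 0.06 over both drugs.

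Cd63, a tetraspanin of late endosomes and lysosomes, was the most abundant membrane gene (chr10:128900989-128912822). Cd63 measured 1160.1 FPKM in Gem 1, 1156 in Gem 2, 932 in HU 1 and 929 in HU 2, with 1386, 1398 and 1370.3 in DMSO 1 to 3. The libraries of each group lay close together and the 3 groups did not overlap, with HU lowest, Gem between and DMSO highest. It fell by 0.26 ± 0.07 in Gem (adjusted p = 0.0356) and by 0.57 ± 0.07 in HU (adjusted p = 0.0016), and after scaling its log2 fold change was 0.05 in Gem and -0.20 in HU (adjusted p = 0.787 and 0.108). Lamp1, the gene of a heavily glycosylated lining protein (chr8:13159161-13175338), measured 854 and 860.2 FPKM in Gem and 746 and 840.5 in HU, against 882, 898 and 1042 in DMSO. Its log2 fold change was -0.13 in Gem and -0.24 in HU, and it passed in neither (adjusted p = 0.372 and 0.0907). Lamp2, which also serves as the receptor of chaperone-mediated autophagy, measured 243 and 233 FPKM in Gem, 192 and 211 FPKM in HU, and 267, 248 and 281 FPKM in DMSO. It fell by 0.39 ± 0.08 in HU (adjusted p = 0.0084) and was at -0.15 in Gem (adjusted p = 0.2), and after scaling it was at -0.03 in HU and 0.15 in Gem.

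Genes of transport across the membrane or to the lysosome completed the class. Scarb2 encodes the receptor that delivers β-glucocerebrosidase and measured 20.4 FPKM in Gem 1, 19.2 in Gem 2, 18.8 in HU 1 and 17.7 in HU 2, with 23.4, 23.7 and 21.5 in DMSO 1 to 3. Npc1, the membrane cholesterol transporter that takes its cargo from NPC2, measured 25.6 and 22.8 FPKM in Gem and 23.7 and 22.96 in HU, against 28.3, 36.1 and 28.4 in DMSO. Mcoln1, a cation channel that releases lysosomal calcium, measured 33.4 and 34.8 FPKM in Gem, 33.9 and 26.9 FPKM in HU, and 36.8, 35.5 and 36.3 FPKM in DMSO. Scarb2 and Npc1 fell in HU, by 0.31 (adjusted p = 0.0279) and 0.38 (adjusted p = 0.0414). Mcoln1 passed in neither drug, with log2 fold changes of -0.09 in Gem and -0.25 in HU (adjusted p = 0.575 and 0.0899). After scaling Mcoln1 was at 0.21 in Gem and 0.11 in HU, Scarb2 at 0.09 and 0.04, and Npc1 at -0.04 and -0.03.

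For both regulators the set of 4 drug libraries overlapped with DMSO on either scale. Tfeb measured 10.8 FPKM in Gem 1, 8.89 in Gem 2, 10.3 in HU 1 and 12.01 in HU 2, with 10.7, 11.6 and 9.59 in DMSO 1 to 3. Tfe3 measured 29.4 and 26.5 FPKM in Gem and 28.7 and 29.00 in HU, against 33.01, 29.1 and 34.98 in DMSO. The log2 fold change of Tfeb was -0.10 ± 0.13 in Gem and 0.06 ± 0.13 in HU (adjusted p = 0.601 and 0.724), and that of Tfe3 was -0.20 ± 0.10 and -0.16 ± 0.10 (adjusted p = 0.174 and 0.246). As deposited both HU libraries of Tfe3 lay just below all 3 DMSO libraries, and after scaling both HU libraries of each gene lay above all 3 DMSO libraries. The scaled log2 fold change of Tfeb was 0.18 in Gem and 0.41 in HU (adjusted p = 0.512 and 0.0798). The activity of both proteins is set largely by their location in the cell, which transcript levels do not show. Of the 6 genes with TCACGTGA in the promoter windows above, the scaled log2 fold change was above 0 in both drugs for Ctsa, Ctsd, Mcoln1 and Atp6v1a and below 0 in both for Atp6v0d1 and Atg3. Atp6v1a was near 0 in HU, at 0.0195. Of all 40 genes the scaled log2 fold change was above 0 for 29 in Gem and 22 in HU.

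Autophagy genes were lower in the drug libraries as deposited for 11 of 13 genes with no overlap, and after trimmed-mean scaling for 2, Atg3 and Gabarapl1, while Wipi1 was higher. In Gem 4 of the 13 fell and in HU 10 fell, and after scaling 0 passed in either drug. After scaling 1 and 4 had an unadjusted p below 0.05, against 16.9% and 25% of all genes. A mean FPKM of at least 20 was reached by 11 of the 13. Of all genes of that level 79% lay below DMSO in all 4 drug libraries as deposited, 55% fell in Gem and 75.8% fell in HU. Becn1 encodes beclin 1, the subunit of the lipid kinase complex that starts the phagophore (chr11:101285952-101302286). Becn1 measured 74.4 and 66.5 FPKM in Gem, 62.02 and 63.2 FPKM in HU, and 90.7, 98.9 and 92.4 FPKM in DMSO. It fell by 0.41 ± 0.08 in Gem (adjusted p = 0.0125) and by 0.58 ± 0.08 in HU (adjusted p = 0.0021), the largest fall in HU among the 40 genes. After scaling it was at -0.11 in Gem and -0.21 in HU (adjusted p = 0.471 and 0.104), and Gem 1 lay within the DMSO range. Wipi1, which binds the lipid that this kinase makes, measured 10.1 FPKM in Gem 1, 8.55 in Gem 2, 9.27 in HU 1 and 9.62 in HU 2, with 9.37, 9.98 and 7.56 in DMSO 1 to 3. Its groups overlapped, with log2 fold changes of 0.06 in Gem and 0.08 in HU (adjusted p = 0.8 and 0.696), while after scaling all 4 drug libraries lay above DMSO at 0.33 and 0.41 (adjusted p = 0.251 and 0.0914).

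The conjugation machinery attaches ubiquitin-like proteins to lipid and to ATG5. Atg7, the activating enzyme of both conjugations, measured 49.7 and 49.6 FPKM in Gem and 43.1 and 40.5 in HU, against 51.8, 56.6 and 59.7 in DMSO. Atg3, the enzyme that hands LC3 and GABARAP proteins to lipid, measured 50.1 and 48.6 FPKM in Gem, 45.6 and 48.6 FPKM in HU, and 68.2, 62.7 and 65.4 FPKM in DMSO (chr16:45158785-45188538). Atg3 fell by 0.40 ± 0.07 in Gem (adjusted p = 0.0115) and by 0.47 ± 0.07 in HU (adjusted p = 0.0034), and its scaled log2 fold change was -0.10 in both (adjusted p = 0.51 and 0.405). Atg12, the ubiquitin-like protein joined to ATG5, measured 21.4 FPKM in Gem 1, 18.5 in Gem 2, 19.1 in HU 1 and 19.04 in HU 2, with 25.8, 24.6 and 22.8 in DMSO 1 to 3. Atg5 measured 33.6 and 32.7 FPKM in Gem and 31.9 and 30.2 in HU, against 37.4, 37.1 and 41.1 in DMSO. Atg16l1, which binds the ATG12-ATG5 conjugate and places it on the membrane, measured 12.2 and 9.55 FPKM in Gem, 8.97 and 12.2 FPKM in HU, and 12.4, 13.1 and 13.6 FPKM in DMSO. Atg7, Atg12 and Atg5 fell in HU, by 0.41 (adjusted p = 0.0078), 0.34 (adjusted p = 0.0294) and 0.30 (adjusted p = 0.0221), and none of them passed in Gem (adjusted p from 0.0712 to 0.174), and after scaling they were at -0.05, 0.01 and 0.06 in HU. Atg16l1 passed in neither (adjusted p = 0.271 and 0.168), with HU 2 and Gem 1 just under DMSO 1.

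The LC3 and GABARAP proteins, which become anchored in the autophagosome membrane, differed in level across their family. Gabarap (chr11:69991143-69994951) was the most abundant and measured 248 FPKM in Gem 1, 261 in Gem 2, 216 in HU 1 and 214 in HU 2, with 339, 316 and 303 in DMSO 1 to 3. Gabarapl1 (chr6:129533160-129542346) measured 71.4 and 72.1 FPKM in Gem and 67.6 and 62.6 in HU, against 93.3, 95.6 and 99.8 in DMSO. Gabarapl2 measured 42.02 and 44.3 FPKM in Gem, 37.9 and 33.4 FPKM in HU, and 56.6, 51.5 and 44.3 FPKM in DMSO. Gabarap fell by 0.33 ± 0.07 in Gem (adjusted p = 0.02) and 0.57 ± 0.07 in HU (adjusted p = 0.0018), and after scaling it was at -0.02 and -0.20. Gabarapl1 fell by 0.42 ± 0.07 in Gem (adjusted p = 0.0093) and by 0.56 ± 0.07 in HU (adjusted p = 0.0017), and after scaling it stayed below DMSO in all 4 drug libraries at -0.12 and -0.19 (adjusted p = 0.5 and 0.177). Gabarapl2 fell in HU by 0.50 ± 0.11 (adjusted p = 0.0129) and was at -0.22 in Gem (adjusted p = 0.188), where Gem 2 lay just under DMSO 3, and after scaling it was at -0.14 in HU and 0.07 in Gem.

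Map1lc3b measured 139 FPKM in Gem 1, 119 in Gem 2, 115 in HU 1 and 125 in HU 2, with 158, 174 and 145 in DMSO 1 to 3. Map1lc3a measured 36.5 and 39.9 FPKM in Gem and 30.96 and 31.3 in HU, against 45.2, 40.9 and 40.5 in DMSO. Both LC3 genes fell in HU, by 0.40 (adjusted p = 0.0198) and 0.43 (adjusted p = 0.0071), and not in Gem (adjusted p = 0.072 and 0.251), and their scaled log2 fold changes in HU were -0.03 and -0.07. Map1lc3b overlaps the predicted gene Gm20388 on the same strand in GENCODE M21. Sqstm1 encodes p62, a cargo receptor that is itself degraded by autophagy, and was the most abundant autophagy gene (chr11:50199366-50210827). Sqstm1 measured 743 and 791 FPKM in Gem, 717 and 841 FPKM in HU, and 772, 857 and 996 FPKM in DMSO. The groups overlapped on both scales, and the log2 fold change was -0.18 ± 0.12 in Gem and -0.16 ± 0.12 in HU (adjusted p = 0.31 and 0.327).

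The counts of genes that fell rested in part on single libraries, among the 40 genes as in the whole table. In Gem the 12 became 0 without Gem 2, where 0.022% of all genes tested fell, and 4 without Gem 1 (10.8% of all genes). Without DMSO 1 there were 5 in Gem (10.4% of all genes) and without DMSO 2 there were 6 (15%). In HU the 26 became 15 without HU 1 (21.8% of all genes), 16 without HU 2 (25.4%), 17 without DMSO 1 (26.1%) and 20 without DMSO 2 (28.6%). Without DMSO 3 there were 12 in Gem (23.4% of all genes) and 25 in HU (34.1%).

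Lumen genes made up a larger share of the summed FPKM of drug libraries than of DMSO libraries. The 15 genes took 1.67% and 1.79% of the sum in Gem and 1.70% and 1.94% in HU, against 1.28%, 1.33% and 1.57% in DMSO. Psap alone was 37.5% to 40.9% of the lumen sum in Gem, 37.5% to 42.0% in HU and 32.0% to 36.9% in DMSO. Without Psap the shares were 0.986% and 1.12% in Gem, 1.06% and 1.12% in HU and 0.873%, 0.885% and 0.993% in DMSO, so that Gem 1 and DMSO 3 overlapped. The 10 membrane and pump genes held 0.382% and 0.393% in Gem, 0.363% and 0.382% in HU and 0.379%, 0.388% and 0.409% in DMSO, and the 13 autophagy genes 0.210% to 0.222% in Gem, 0.217% to 0.235% in HU and 0.211% to 0.236% in DMSO. The last 2 classes overlapped between drug and DMSO libraries.

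**Figure D4:**
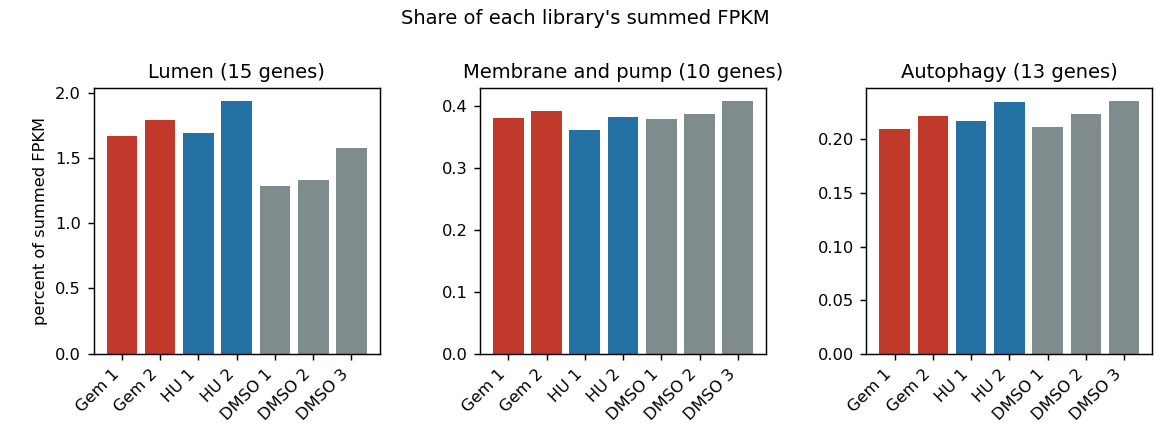
Bars give the percent of each library's summed FPKM taken by the lumen, membrane and pump, and autophagy genes, with Gem, HU and DMSO libraries from left to right and each vertical axis starting at 0. The lumen share is 1.67% or more in the 4 drug libraries and 1.57% or less in the 3 DMSO libraries, and the other classes overlap.

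Gem and HU were also set against each other, which is the test of whether the drugs differ. Of the 40 genes 0 passed in limma after Benjamini-Hochberg adjustment, against 0.101% of all genes tested, and 6 had an unadjusted p below 0.05, against 10.7% of all genes. Cd63 had the largest difference, 0.32 higher in Gem than in HU (95% interval 0.14 to 0.50, unadjusted p = 0.00405, adjusted p = 0.274). The other 5 were Map1lc3a, Gabarap, Npc2, Lamp2 and Atg7, at 0.19 to 0.29 higher in Gem (adjusted p from 0.349 to 0.402). The log2 difference was above 0 for 34 of the 40 genes as deposited and for 26 after scaling. As deposited the median of all genes tested was itself above 0, at 0.056, and at 0.108 for those with a mean FPKM of at least 20. On each scale 26 of the 40 lay above the median of all genes. For Lipa the interval of the difference was -0.55 to 0.39, and for Atp6v0d1 it was -0.25 to 0.14, so neither a difference of that size nor its absence was shown.

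A wider list of 115 other genes of the same pathways, of which 114 were tested and Ids was not, was counted in the same fit. In Gem 44 fell and 0 rose, and in HU 62 fell and 2 rose, against 23.2% of all genes that fell in Gem and 35.5% in HU. Of the 65 with a mean FPKM of at least 20, 39 fell in Gem and 52 in HU, against 55% and 75.8% of all genes of that level, so the counts were near their background. By class the falls in Gem were 12 of 34 other lumen genes, 14 of 31 membrane and pump genes, 11 of 17 genes of delivery and regulation and 7 of 32 autophagy genes, and in HU they were 18, 19, 13 and 12. After scaling 1 fell and 0 rose in Gem, and 6 fell and 5 rose in HU, against 0.945% of all genes called either way in Gem and 10% in HU. The median log2 fold change of the 114 genes was -0.27 in Gem and -0.35 in HU, against -0.25 and -0.30 for all genes. After scaling 19 of the 34 other lumen genes lay above the median of all genes in Gem and 15 in HU. With the correction for length and level 25 did in Gem and 26 in HU.

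Genes of delivery and regulation had the lowest median of these 4 classes, -0.46 in Gem and -0.51 in HU. Lamtor2, a scaffold subunit that anchors the nutrient-sensing kinase mTORC1 at the lysosome, measured 126 FPKM in Gem 1, 116 in Gem 2, 116 in HU 1 and 116 in HU 2, with 233, 242 and 195 in DMSO 1 to 3. It fell by 0.87 ± 0.10 in Gem (adjusted p = 0.0058) and by 0.93 ± 0.10 in HU (adjusted p = 0.0013), and also after scaling, by 0.57 in both (adjusted p = 0.0405 and 0.014). Lamtor3, of the same scaffold, fell by 0.57 in Gem and 0.72 in HU (adjusted p = 0.0072 and 0.0013). Tfec, a relative of TFEB found in myeloid cells, measured 61.3 and 55.8 FPKM in Gem and 54.7 and 50.6 in HU, against 87.1, 84.9 and 86.2 in DMSO. It fell by 0.55 ± 0.07 in Gem (adjusted p = 0.0069) and by 0.70 ± 0.07 in HU (adjusted p = 0.0012). Both Lamtor3 and Tfec passed after scaling in HU, at -0.35 and -0.34 (adjusted p = 0.0318 and 0.0309), and not in Gem, at -0.27 and -0.25 (adjusted p = 0.148 and 0.152). With a correction for length and level 0 of the 17 genes of this class passed in HU and 1 in Gem, against 2.04% of all genes in HU and 0.439% in Gem.

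Among other lumen genes, Acp5, the tartrate-resistant acid phosphatase gene, fell by 1.09 ± 0.15 in Gem (adjusted p = 0.007) and by 0.96 ± 0.15 in HU (adjusted p = 0.0037). Dnase2a, the gene of the nuclease that degrades engulfed DNA, fell by 0.55 in Gem and 0.72 in HU (adjusted p = 0.0107 and 0.0021). Gla, the α-galactosidase gene, fell by 0.51 in Gem and 0.65 in HU (adjusted p = 0.0129 and 0.0029). Aga, an amidase gene, fell by 0.49 in Gem and 0.76 in HU (adjusted p = 0.0192 and 0.0025), and Ppt1, a thioesterase gene, by 0.37 and 0.49 (adjusted p = 0.0135 and 0.0027). These falls are as deposited, and after scaling 0 of the 34 other lumen genes fell in Gem and 1 did in HU. Man2b1, the α-mannosidase gene, rose in HU after scaling only, by 0.25 (adjusted p = 0.0489), and was at 0.18 in Gem (adjusted p = 0.208). As deposited it was lower in all 4 drug libraries than in DMSO. Atp6v1f, a subunit of the pump's cytoplasmic sector, measured 248 and 238 FPKM in Gem, 220.2 and 245 FPKM in HU, and 391, 369 and 368 FPKM in DMSO. It fell by 0.63 ± 0.07 in Gem and by 0.69 ± 0.07 in HU (adjusted p = 0.0058 and 0.0012), beside Atp6v1e1 at -0.38 and -0.52 (adjusted p = 0.0088 and 0.0014). Both are values as deposited, and after scaling 0 of the 31 other membrane and pump genes fell in Gem and 2 did in HU.

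Tmem192, a lysosomal membrane protein gene, fell as deposited by 0.48 in Gem and 0.55 in HU (adjusted p = 0.0078 and 0.002). Atp6v0e of the pump also fell as deposited, by 0.56 in Gem and 0.86 in HU (adjusted p = 0.0109 and 0.0014). Clcn7, the lysosomal chloride-proton exchanger gene, measured 30.8 FPKM in Gem 1, 36.9 in Gem 2, 37.99 in HU 1 and 30.3 in HU 2, with 27.4, 26.2 and 26.9 in DMSO 1 to 3. Clcn7 and Slc17a5, the sialic acid exporter gene, rose in HU after scaling only, by 0.69 and 0.49 (adjusted p = 0.0221 and 0.0171), and stood at 0.62 and 0.38 in Gem (adjusted p = 0.0834 and 0.0888). Of autophagy genes, Rab7, the small GTPase of late endosomes, fell by 0.39 in Gem and 0.53 in HU (adjusted p = 0.011 and 0.0019), Atg4a, an LC3 protease gene, by 0.42 and 0.57 (adjusted p = 0.021 and 0.0041), and Vamp8, a fusion protein gene, by 0.57 and 0.73 (adjusted p = 0.0283 and 0.0072). Tax1bp1, a cargo receptor gene, fell by 0.28 in Gem and 0.46 in HU (adjusted p = 0.0322 and 0.0036). These falls of autophagy genes are as deposited, and after scaling 0 of the 32 other autophagy genes fell in either drug. Atg2a, a lipid transfer protein gene, measured 4.64 and 5.22 FPKM in Gem and 6.02 and 6.76 in HU, against 4.82, 4.18 and 3.89 in DMSO. Atg2a and Calcoco1, the gene of a receptor for autophagy of the endoplasmic reticulum, rose in HU as deposited, by 0.48 and 0.32 (adjusted p = 0.0292 and 0.0415), and after scaling, by 0.81 and 0.66 (adjusted p = 0.017 and 0.0137). In Gem they were at 0.17 and 0.025 as deposited (adjusted p = 0.412 and 0.881) and at 0.42 and 0.30 after scaling (adjusted p = 0.189 and 0.208). Between Gem and HU 0 of the 114 genes of the wider list passed, and 12 had an unadjusted p below 0.05 (10.7% of all genes).

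Macrophages are rich in lysosomes, so their markers are given beside these results. Of 14 macrophage genes 12 were tested, and Cd163 and Vsig4 lay at or below 0.38 FPKM in all libraries. The 14 summed to 528 and 587 FPKM in Gem and 553 and 575 in HU, against 624, 599.6 and 687 in DMSO. C1qb, a complement component gene, rose in Gem as deposited, by 0.53 (adjusted p = 0.0468), and was at 0.40 in HU (adjusted p = 0.0803). After scaling C1qb rose in HU, by 0.76 (adjusted p = 0.0359), and was at 0.83 in Gem (adjusted p = 0.0809). As deposited Cd14 fell in both drugs and Adgre1 in HU, and after scaling neither passed. Neutrophil granule genes summed to 6813 to 8541 FPKM in Gem, 7452 to 8170.4 in HU and 6628 to 10496 in DMSO, with DMSO 3 lowest. Mast cell and basophil genes summed to 239 to 419 in Gem and 210 to 215 in HU, against 296 to 1387 in DMSO, with Cma1 and Tpsb2 at or below 0.35 FPKM in all libraries. Megakaryocyte genes summed to 1695 to 1792 in Gem, 1350.4 to 1548 in HU and 1728 to 2795 in DMSO. The 8 stem cell genes summed to 43.8 and 48.3 FPKM in Gem and 42.5 and 42.7 in HU, against 63.0 to 78.9 in DMSO, with no overlap. Of these Ly6a, the gene of Sca-1, fell by 0.69 in Gem and 1.19 in HU (adjusted p = 0.029 and 0.0027), and after scaling by 0.84 in HU (adjusted p = 0.0297), with -0.40 in Gem (adjusted p = 0.312). The part of these cells in the levels of lysosomal genes was not tested.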

How the data were processed

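RNA of 7 libraries of cultured mouse haematopoietic stem cells was analysed (Gem n = 2, HU n = 2, DMSO n = 3). Per the labels' protocols, cDNA was amplified by the Geo-seq method before a transposase-based (TruePrep) library preparation; strand is not stated, so overlapping genes on either strand cannot be told apart. The authors deposited FPKM values for 52224 genes, used as deposited; 0 columns of other samples were present. Per the submitters' processing notes, the tools were Bowtie 0.12.9, Cufflinks 2.1.1, HTSeq and DESeq2 with the build mm10; which of them made the FPKM, and from which annotation, is not given in the sources used here. Depth is unknown: in a search for the value of 1 read, between 21.7% and 24.4% of a library's low values were whole multiples within a tolerance of 0.1 steps, so no reads were recovered and no intervals for counting error are given.

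The log2(FPKM + 1) values of 13865 genes, those that reached an FPKM of 1 in 2 or more libraries, were fitted in limma 3.58.1 (R 4.3.3). A model of 3 groups had a mean-variance trend and 4 residual degrees of freedom. Tests were two-sided, and each adjusted p is limma's after Benjamini-Hochberg adjustment over all genes tested. Genes called had an adjusted p below 0.05. The log scale understates changes of low genes. Errors of fold changes are standard errors; 95% intervals are limma's. Trimmed-mean scaling dropped 30% of ratios and 5% of levels at each end. The fit was tested on simulated data. Figures were drawn with matplotlib 3.10.9 in Python 3.11.15.

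The 40 genes, the 115 other pathway genes, the markers and the alternatives were chosen with earlier results of these data known. Genes are named with every library's value where they passed a test, where drug and DMSO libraries did not overlap, or where they were among the 2 most abundant of a class, which covered all 40; of other pathway genes, the 3 with the smallest p each way per class and contrast and any that rose are named. As alternatives, the pseudocount was set to 0.1, the filter was dropped or replaced by a mean FPKM of 5 or more, and fits were repeated with the TPM scale, trimmed-mean scaling, quantile normalization, no trend, library weights, fits of the compared groups alone, a replicate block, a loess correction for length and level (span 0.3), and leaving out each library. Scaling combined with left-out libraries or with the block, and the background of genes with a mean FPKM of at least 20, were added after seeing the data. Coordinates and lengths are from GENCODE M21 on GRCm38, the assembly of mm10, and 96.9% of tested genes had a length.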

Additional observations from a re-analysis of the deposited data

How the results depend on the processing

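The direction of single genes depended on how libraries were scaled, and the cause was not tested. Log2 fold changes that were below 0 as deposited, and called either as deposited or under the alternative, turned positive as follows. In Gem against DMSO, trimmed-mean scaling gave Npc2 0.055 and Cd63 0.046. Quantile normalization gave Ctsh 0.13, Ctsl 0.043, Ctsz 0.022, Gusb 0.075, Npc2 0.22, Cd63 0.013, Atp6v1h 0.10, Becn1 0.0011 and Gabarap 0.080. The correction for length and level gave Ctsh 0.046, Ctsz 0.0029, Npc2 0.092, Cd63 0.038, Gabarap 0.10 and Gabarapl1 0.029. In HU against DMSO, the TPM scale gave Hexa 0.11, Glb1 0.13, Neu1 0.098, Scarb2 0.018, Atp6ap1 0.023 and Atg5 0.033. With trimmed-mean scaling the values were Hexa 0.14, Glb1 0.16, Neu1 0.12, Scarb2 0.043, Atp6v1a 0.019, Atp6ap1 0.049, Atg5 0.058 and Atg12 0.014. Quantile normalization gave Ctsa 0.57, Ctsh 0.12, Ctsz 0.23, Hexa 0.42, Gusb 0.13, Glb1 0.27, Grn 0.54, Neu1 0.27, Npc2 0.17, Lamp2 0.21, Scarb2 0.076, Npc1 0.029, Atp6v1a 0.20, Atp6v1h 0.059, Atp6ap1 0.30, Atg3 0.0069, Atg5 0.13, Atg7 0.056, Atg12 0.051, Map1lc3a 0.014, Map1lc3b 0.19 and Gabarap 0.028. The correction for length and level gave Ctsh 0.022, Ctsz 0.26, Hexa 0.39, Gusb 0.040, Glb1 0.28, Grn 0.47, Neu1 0.23, Npc2 0.040, Lamp2 0.048, Scarb2 0.029, Atp6v0d1 0.040, Atp6v1a 0.10, Atp6ap1 0.25, Atg3 0.016, Atg5 0.20, Map1lc3a 0.19, Map1lc3b 0.043, Gabarap 0.048, Gabarapl1 0.017 and Gabarapl2 0.022.

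The count of the 40 genes that fell in Gem, 12 as deposited, was 5 with no filter, 5 without the trend, 1 on the TPM scale and 0 with trimmed-mean scaling, quantile normalization or the correction for length and level, and it was 0 to 12 when single libraries were left out. The count that rose in Gem, 0 as deposited, was 1 with a mean FPKM of at least 5 and 1 with library weights, and 0 to 2 when single libraries were left out, also after scaling. In HU the count that fell, 26 as deposited, was 0 on the TPM scale, with trimmed-mean scaling, with quantile normalization and with the correction for length and level, and 15 to 25 when single libraries were left out (0 in each case after scaling). The count that rose in HU, 1 as deposited, was 0 with no filter, 0 without the trend, 4 with quantile normalization and 3 with the correction for length and level, and 0 to 1 when single libraries were left out, or 0 to 3 after scaling. Between Gem and HU 0 genes were called under every alternative run. Where a group is left with 1 library, that library is assumed to vary like the others.

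For same-numbered libraries the correlation of deviations from group means was -0.0736 between Gem and HU, and 0.0133 to 0.0549 with DMSO. With 2 libraries per drug the deviations of a group mirror each other. These values therefore cannot decide whether the numbers pair libraries, which the labels do not state. With a replicate block 7 genes fell and 1 rose in Gem, and 21 fell and 1 rose in HU; with scaling and a replicate block 0 fell and 1 rose in Gem, and 0 fell and 4 rose in HU. Over all genes tested, the count lower in Gem was 3213 as deposited, 1286 with no filter, 1902 without the trend and 65 with trimmed-mean scaling, and in HU it was 4922 as deposited and 731 with that scaling. The depth behind each value is unknown, which limits low genes such as Wipi1, Tfeb and Atg16l1 most. With 2 libraries per drug, 1 library can decide a call.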

Other observations

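The 2 HU libraries differed in the lumen genes. HU 2 was the higher for 14 of the 15 lumen genes, with Ctsl as the exception, against 54.8% of all genes tested and 58.5% of those with a mean FPKM of at least 20. For membrane and pump genes each HU library was the higher for 5 of 10, and for autophagy genes HU 2 was for 7 of 13. Gem 2 was the higher of the 2 Gem libraries for 10 of the 15 lumen genes, against 30.3% of all genes with a mean FPKM of at least 20, and for 4 of 10 membrane and pump genes. DMSO 3 was the highest of the 3 DMSO libraries for 8 of the 15 lumen genes and 5 of the 10 membrane and pump genes, against 31% of all genes of that level, as well as for Sqstm1 at 996 FPKM in DMSO 3, against 772 in DMSO 1 and 857 in DMSO 2. Relative to the median of all genes and the DMSO mean, the median lumen gene stood at 0.10 and 0.18 in Gem and 0.053 and 0.12 in HU, against -0.046, -0.042 and 0.059 in DMSO 1 to 3 (log2).

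In the RefSeq promoters of the 115 other pathway genes, 91 of which were matched, CACGTG was found for 21 (23.1%), against 8.09% of all genes with a RefSeq promoter. TCACGTGA was found for 6 (6.59%), against 1.12%. Genes of delivery and regulation held CACGTG for 7 of 14, other lumen genes for 6 of 25, other membrane and pump genes for 4 of 24 and other autophagy genes for 4 of 28.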
